A study of Mus musculus with 38 samples.

Results

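The 3 mouse peroxisome proliferator-activated receptor genes Ppara, Ppard and Pparg, and Rxra, the gene of their heterodimer partner RXRα, were followed across intestinal stem cell organoids of 4 genotypes grown with or without a PPARδ agonist. These 4 genes were chosen by symbol, as the rows of the deposited count table whose Ensembl identifiers map to them in the mouse GENCODE annotation of build mm10, and they are 4 of the 54352 identifiers in that table. The rule uses no measured value, but the genes were chosen with earlier results of these data known.

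All organoids came from crypts of C57BL6 mice, were embedded in matrigel and were kept for 8 days over 2 passages, per the labels' protocols. Every culture held 0.1% DMSO, and the treated ones also held 1 uM GW501516 (GW), a synthetic agonist of PPARδ. The 4 genotypes were wild type (WT), Ppard-fl/fl (D), Ppara-null (A) and Ppard-fl/fl with Ppara-null (DA). WT, D and A had 5 vehicle libraries each and DA had 4, and under GW there were 5 libraries in WT, A and DA and 4 in D. The series text calls the Ppard-fl/fl animals knockouts, but the labels name no recombinase, and they give neither the ages of the mice nor the deleted part of either gene. The labels do not say whether libraries of a group came from separate mice or cultures, so p-values measure only the spread between these libraries. 1 sample titled as GW in D carries the DA genotype in another label. It was kept in D by its title, and which of the 4 GW columns of D it is cannot be told from their names.

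PPARs are nuclear receptors that bind fatty acids and related lipids and switch on genes for fatty acid uptake, transport and oxidation. Each binds DNA only as a heterodimer with a retinoid X receptor, at a response element built from a direct repeat of the hexamer AGGTCA with a spacer of a single base. In the intestinal epithelium PPARα and PPARδ are the main sensors of dietary fat, PPARδ activity has been linked to stem cell function, and PPARγ is best known as the master regulator of fat cell differentiation.

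The response element is shown first because it is the sequence that the receptor pair is known to read. The repeat was searched on both strands in RefSeq promoter windows of 300 bases, 250 before and 50 after each start, on GRCm38.p6 (the NCBI name of build mm10). Over all 32851 windows, 0.0396% held the repeat exactly, 0.554% with at most 1 of its 12 letters changed and 3.86% with at most 2. With at most 4 changed the share was 79.8%, so a stretch with 4 or 5 letters changed does not set a window apart. The 4 receptor genes had 7 windows, of which 1, in Rxra, held the repeat with at most 2 letters changed. The closest stretch of each receptor gene is printed here with 8 bases on either side, in capitals over the 2 half-sites and the spacer, read 5′ to 3′ on the strand that carries the match. The letters changed were 4 in Ppara at chr15:85735537-85735549, 5 in Ppard at chr17:28232535-28232547, 4 in Pparg at chr6:115361109-115361121 (the first of its 3 windows, which all have 4) and 2 in Rxra at chr2:27709217-27709229. Of 36 PPAR target genes with 40 windows, 6 genes had a window with at most 2 letters changed. For comparison, 4 of them follow, those that passed the filter on low counts, and the others are Cd36 and Ucp3. These are Fabp1, encoding liver fatty acid-binding protein, at chr6:71199812-71199824 with 1 letter changed, and, with 2 changed, Creb3l3 at chr10:81092788-81092800, Plin2 at chr4:86670272-86670284 and Slc25a20 at chr9:108662142-108662154. Creb3l3 encodes a hepatic and intestinal transcription factor, Plin2 a lipid droplet coat protein and Slc25a20 the mitochondrial carnitine and acylcarnitine carrier. A match describes the letters in the window only.
Ppara: ggacgctaCGGTCCCACGACAggggtgac
Ppard: tcagctgcTGCTCCCACGTCTgactgcag
Pparg: ccaagccgCCGCCTCAGGTCAgagtcgcc
Rxra: ctgagtaaTGGTCATAGGCCAgtgggtgg
Fabp1: tcagatatAGGCCATAGGTCAgtgattgt
Creb3l3: ctgtaagtAGGGGAGAGGTCAcacagacc
Plin2: tctgacttAGGTCAGGGGTCCtgaaagct
Slc25a20: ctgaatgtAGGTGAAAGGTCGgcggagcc

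Libraries were made by 3′ digital gene expression, which counts tags from the 3′ ends of polyadenylated transcripts, so the last exon is where most tags of a gene are expected. On mm10, Ppara (ENSMUSG00000022383) lies on the plus strand of chromosome 15 at 85734983 to 85802819, with a last exon of 1809 bases of which 1561 are 3′ UTR. Ppard (ENSMUSG00000002250) lies on the plus strand of chromosome 17 at 28232700 to 28301474, with a last exon of 1873 bases. Pparg (ENSMUSG00000000440) lies on the plus strand of chromosome 6 at 115360951 to 115490399, with a last exon of 452 bases. Rxra (ENSMUSG00000015846) lies on the plus strand of chromosome 2 at 27676440 to 27762957, with a last exon of 3417 bases, nearly all of it 3′ UTR. The antisense gene Gm44079 overlaps Pparg outside its last exon and had 0 counts. A 3′ tag outside the deleted part of an allele does not check that allele, and the deleted parts are not given in the sources used here.

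The 38 libraries held 353347 to 577557 counts, with a median of 483740, and 9660 to 11085 genes with a count. At this depth Ppard and Rxra were measured in single counts. Intervals on summed counts are exact Poisson intervals at 95% and cover counting error only. Library numbers in the column names fall into 1 to 36 (24 libraries) and 37 to 60 (14 libraries). Xist exceeded the Y-linked genes in 18 of the former and in 0 of the latter, and most groups had 3 libraries in the first run of numbers and 2 in the second, while GW in D and vehicle in DA had 3 and 1. The organoids carried the epithelial markers Epcam, Krt8, Krt18, Vil1 and Cdh1 (829 to 1902 summed CPM, counts scaled to a library total of 1000000) and markers of Paneth, goblet, enterocyte and stem cells. Of 5 immune markers 3 had a count, at 0 to 8.58 summed CPM, with Ptprc and Cd3e at 0 in every library. Of 4 stromal and endothelial markers 2 had a count, at 12.7 to 54.3 summed CPM, with Col1a1 and Col3a1 at 0. Of 4 adipocyte markers Adipoq, Cfd and Lep were at 0 and Plin1 had 1 count over all libraries, and of 3 tuft cell markers 2 had 3 counts in all, with Trpm5 at 0. In bulk samples, fewer cells of a type and less RNA per cell cannot be told apart.

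Ppara tags were lower in the libraries of Ppara-null organoids than in those with an intact gene, 4.70-fold over both treatments in the fit given below, and were at 0 in 3 of the 19 null libraries. In vehicle, the 5 WT libraries had 4, 6, 9, 11 and 13 counts, the 5 D libraries 6, 1, 3, 9 and 8, the 5 A libraries 2, 0, 2, 2 and 3, and the 4 DA libraries 1, 0, 2 and 1. Under GW, WT had 11, 5, 2, 9 and 11 counts, D 10, 13, 6 and 1, A 1, 2, 0, 3 and 2, and DA 2, 1, 2, 3 and 1. No Ppara-null library had more than 3 counts, and 4 of the 19 intact libraries, 1 of WT under GW, 2 of D in vehicle and 1 of D under GW, had 3 or fewer, so the 2 sets overlap at their edges. The intact libraries summed to 138 counts, or 15.4 pooled CPM (12.9 to 18.2), and the null libraries to 30 counts, or 3.27 (2.21 to 4.67). The ratio of null to intact was 0.212 (0.138 to 0.317). The intact libraries, here and in the comparisons below, include the sample titled as GW in D whose labels disagree on its genotype.

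In mean CPM per group, Ppara stood at 17.3 ± 7.08 (SD, n = 5) in vehicle WT, 16.4 ± 8.06 (n = 5) in GW WT, 16.3 ± 11.0 (n = 4) in GW D and 10.6 ± 6.38 (n = 5) in vehicle D. The null groups followed at 3.80 ± 1.67 (n = 5) in GW DA, 3.64 ± 2.14 (n = 5) in vehicle A, 3.30 ± 2.29 (n = 5) in GW A and 2.01 ± 1.68 (n = 4) in vehicle DA. Along this order the gap between neighbours was smaller than the larger of their 2 SDs except between vehicle D and GW DA, where the intact groups end.

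**Figure D1:**
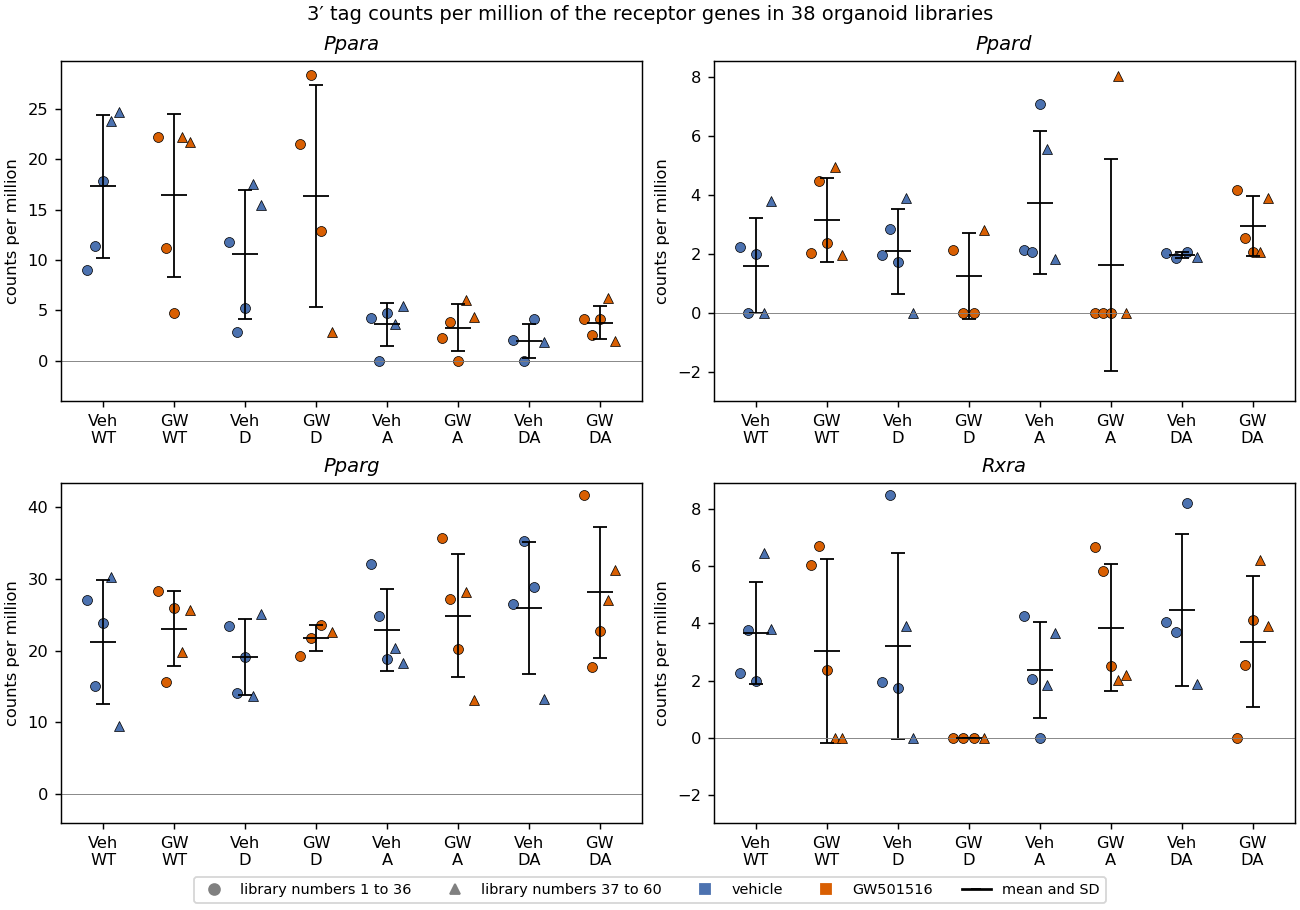
CPM of Ppara, Ppard, Pparg and Rxra (vertical axes, linear) in each of the 38 libraries, by genotype and treatment (horizontal axes). Points are libraries, circles for library numbers 1 to 36 and triangles for 37 to 60, and bars are the group mean and SD. Ppara is low in all 4 groups of A and DA, Pparg overlaps in all 8 groups, and all 4 Rxra values of GW in D are at 0.

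Whether the receptor genes differ between genotypes and under the agonist was tested in 1 edgeR quasi-likelihood fit of all 8 groups with 16 comparisons, adjusted by Benjamini-Hochberg over 4729 genes, at an adjusted p of 0.05. Ppara and Pparg passed the filter on low counts and Ppard and Rxra did not, and Ppara passed it through the groups where it is high. Over both treatments, Ppara in the null groups was lower than in the intact groups by a log2 fold change of -2.23 ± 0.29 (SE, 95% interval -2.82 to -1.64, edgeR adjusted p = 1.09e-06). In that comparison 1.06% of all genes tested passed as lower. Within library numbers 1 to 36 the log2 fold change was -2.20 (adjusted p = 0.000857), and within 37 to 60 it was -1.72 with an adjusted p of 0.404. It passed with each library left out in turn, between -2.37 and -2.13. With limma-trend, on log2 CPM with a prior count that pulls low levels together, it passed at -1.32 (adjusted p = 1.6e-05), a smaller size, and DA against WT in vehicle was -1.80 there (adjusted p = 0.0447).

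Taken by group, DA against WT in vehicle passed for Ppara at -3.04 ± 0.63 (edgeR adjusted p = 0.0237), in a comparison where 0.0634% of genes passed as lower. That call was lost when any of 6 of the 9 libraries was left out (vehicle DA replicates 1, 2 and 4 and vehicle WT replicates 3, 4 and 5), with log2 fold changes between -3.06 and -2.64 and adjusted p between 0.0596 and 0.0851. A against WT stood at -2.24 ± 0.53 in vehicle (edgeR adjusted p = 0.0760) and -2.18 ± 0.55 under GW (adjusted p = 0.126), and DA against WT under GW at -2.06 ± 0.54 (adjusted p = 0.0556). None of these 3 passed. Without replicate 3 of GW in WT, the WT library with 2 counts, both comparisons under GW passed, at -2.39 (edgeR adjusted p = 0.0437) for A and -2.26 (adjusted p = 0.0186) for DA. That was the only 1 of 10 such fits to pass for either, and edgeR adjusted p reached 0.504 for A and 0.168 for DA with other libraries left out. With the run of library numbers as a blocking term, A in vehicle (-2.25, adjusted p = 0.0465) and DA under GW (-2.06, adjusted p = 0.0333) passed. With DESeq2 and with limma-trend none of the 3 passed (adjusted p from 0.0725 to 0.285). The comparisons within a treatment share their WT libraries. D against WT was -0.67 ± 0.44 in vehicle and 0.08 ± 0.45 under GW, and neither passed.

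GW left no detectable mark on Ppara itself at this depth. The log2 fold change of GW against vehicle was -0.11 ± 0.41 for WT, 0.65 ± 0.47 for D, -0.05 ± 0.72 for A and 0.88 ± 0.83 for DA, and averaged over genotypes 0.34 ± 0.32 (95% interval -0.30 to 0.98, edgeR adjusted p = 0.915). For D the sign differed between the runs of library numbers, at 1.51 (0.28 to 2.74) within 1 to 36 and -2.44 (-4.68 to -0.20, edgeR adjusted p = 0.823) within 37 to 60, where GW in D is 1 library with 1 Ppara count. Neither passed after adjustment. Between the Ppard genotypes Ppara differed by -0.32 ± 0.32 (interval -0.96 to 0.32), within library numbers 1 to 36 by -0.0035 and within 37 to 60, with that same library, by -1.25 (adjusted p = 0.538).

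**Figure D2:**
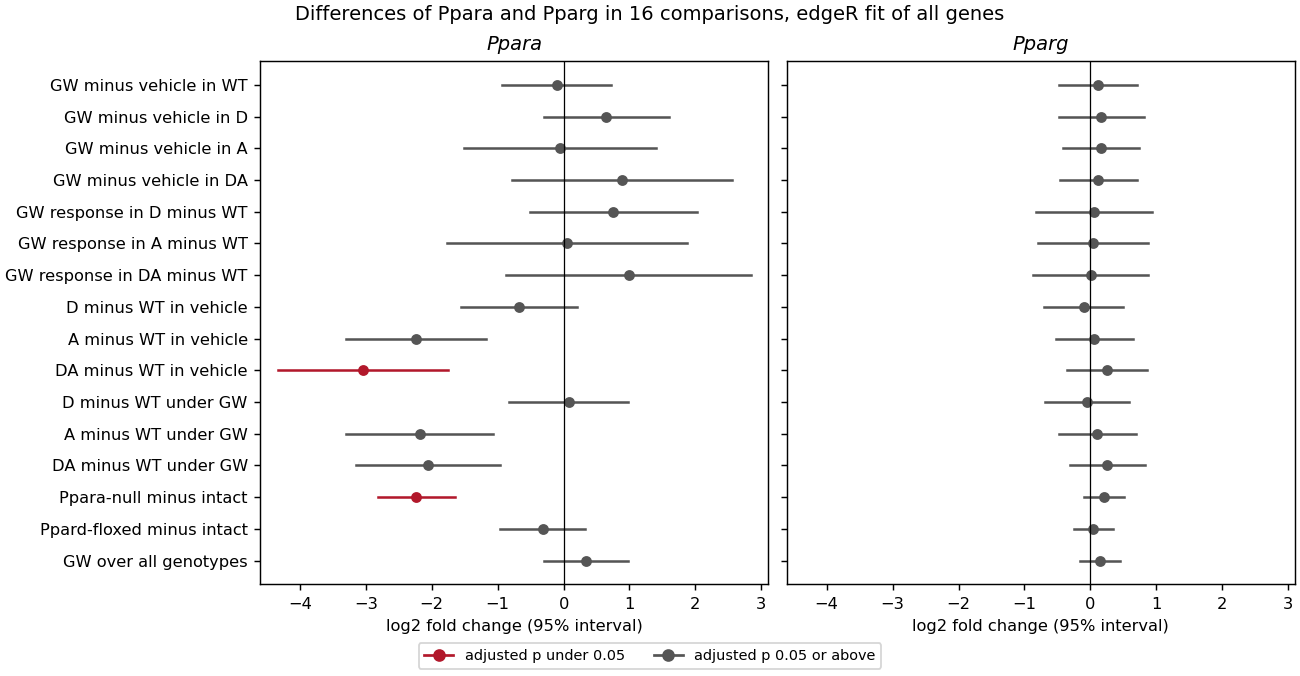
Log2 fold change (horizontal axis) with its 95% interval for Ppara and Pparg in 16 comparisons (vertical axis), from the edgeR fit of all genes. Red marks an adjusted p under 0.05, which only Ppara reaches, in DA minus WT in vehicle (-3.04) and in Ppara-null minus intact (-2.23), while every Pparg interval spans 0.

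Ppard, the gene of the receptor that GW501516 activates, was detected at 0 to 4 counts per library and 42 counts in all, with 9 of 38 libraries at 0. In vehicle, WT libraries had 1, 0, 1, 0 and 2 counts, D libraries 1, 1, 1, 2 and 0, A libraries 1, 1, 3, 3 and 1, and the 4 DA libraries 1 each. Under GW, WT libraries had 1, 2, 1, 2 and 1, D libraries 1, 0, 0 and 1, A libraries 0, 0, 0, 4 and 0, and DA libraries 2, 1, 1, 1 and 2. Ppard tags were thus present in both genotypes labelled Ppard-fl/fl, with 3 of their 18 libraries at 0 against 6 of the 20 others. The count ranges of all 8 groups overlap. In CPM vehicle DA (1.85 to 2.06) and GW DA (2.07 to 4.17) lay just apart.

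Group means of Ppard were highest in vehicle A at 3.73 ± 2.42 CPM (SD, n = 5), followed by GW WT at 3.15 ± 1.44 and GW DA at 2.95 ± 1.01. Lower means were 2.08 ± 1.44 in vehicle D, 1.96 ± 0.101 in vehicle DA, 1.61 ± 3.60 in GW A, 1.60 ± 1.62 in vehicle WT and 1.24 ± 1.46 in GW D. Every neighbouring pair along this order differed by less than the larger SD. Over both treatments the floxed libraries summed to 18 counts and the others to 24, a ratio of 0.83 with a counting interval of 0.424 to 1.59. The mean was 2.11 CPM in 18 floxed libraries against 2.52 in 20 others, a difference of -0.416 CPM (two-sided permutation test, 100000 resamples, p = 0.521). A loss of Ppard tags to under 0.424 of the intact level lies outside the counting interval, and smaller losses were not detectable at this depth.

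Over the 13 comparisons run for Ppard, raw permutation p ran from 0.0556 to 0.907 and adjusted p from 0.516 to 0.907. The lowest raw value belonged to GW against vehicle in DA (2.95 against 1.96 CPM, exact permutation test, two-sided). GW against vehicle over all genotypes was 2.29 against 2.37 CPM (p = 0.907, permutation test), and its sign turned in 10 of the 38 tests that left out a library.

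Pparg was detected in every library, at 5 to 20 counts, and overlapped between all groups. In vehicle, WT libraries had 12, 8, 12, 14 and 5 counts, D libraries 12, 5, 11, 7 and 13, A libraries 15, 12, 8, 11 and 10, and DA libraries 13, 19, 14 and 7. Under GW, WT libraries had 14, 7, 11, 8 and 13, D libraries 9, 10, 11 and 8, A libraries 16, 14, 8, 14 and 6, and DA libraries 20, 7, 11, 13 and 16. The highest library was 1 of DA under GW and the lowest counts, 5, came from 1 library each of vehicle WT and vehicle D. Of the 4 markers of fat cells, the cells PPARγ is best known for, 3 were at 0 and Plin1 had 1 count, as given above.

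The group means of Pparg were 28.1 ± 9.11 CPM (SD, n = 5) in GW DA, 25.9 ± 9.23 in vehicle DA, 24.9 ± 8.54 in GW A, 23.0 ± 5.19 in GW WT and 22.9 ± 5.73 in vehicle A. GW D had 21.8 ± 1.80, vehicle WT 21.1 ± 8.61 and vehicle D 19.1 ± 5.24. Each gap between neighbours was smaller than the larger SD. Over both treatments the Ppara-null libraries held 234 counts and the intact ones 190, a pooled ratio of 1.20 (0.990 to 1.47). In the fit Pparg in the null groups differed by a log2 fold change of 0.21 ± 0.15 (95% interval -0.09 to 0.51, edgeR adjusted p = 0.716), and within library numbers 37 to 60 the sign turned (-0.10).

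For Pparg, WT organoids changed with GW by 0.12 ± 0.29 on the log2 scale, D organoids by 0.17 ± 0.32, A organoids by 0.16 ± 0.29 and DA organoids by 0.12 ± 0.29, and the change was 0.14 ± 0.15 over all genotypes (interval -0.16 to 0.44). Against WT the 3 other genotypes differed by -0.10 to 0.26 in vehicle and under GW, and the Ppard genotype by 0.05 ± 0.15. None of the 16 edgeR comparisons of Pparg passed, the lowest unadjusted p being 0.171, and none passed with DESeq2 or limma-trend.

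Rxra, which encodes the partner that PPARs need to bind DNA, was detected at 0 to 4 counts per library and 55 counts in all, with 9 libraries at 0. In vehicle, WT libraries had 1, 2, 1, 3 and 2 counts, D libraries 1, 3, 1, 2 and 0, A libraries 2, 1, 0, 1 and 2, and DA libraries 2, 2, 4 and 1. Under GW, WT libraries had 3, 3, 1, 0 and 0, the 4 D libraries 0 each, A libraries 3, 3, 1, 1 and 1, and DA libraries 0, 1, 2, 3 and 2. GW in D thus stood at 0 throughout, and 4 of the other 7 groups also held at least 1 library at 0.

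Rxra means ran from 4.47 ± 2.68 CPM (SD, n = 4) in vehicle DA through 3.84 ± 2.23 in GW A, 3.66 ± 1.79 in vehicle WT, 3.36 ± 2.30 in GW DA, 3.22 ± 3.26 in vehicle D and 3.03 ± 3.22 in GW WT to 2.37 ± 1.68 in vehicle A. GW D came last at 0, and the gap before it was the only one wider than the larger SD of its neighbours. The 4 libraries of GW in D allow up to 1.72 pooled CPM, taken as 3 counts over the group, or 2.11 CPM at the upper end of the exact interval. That limit lies below the mean of vehicle D but inside its SD (3.22 ± 3.26 CPM). The difference between the 2 groups was not past 0.05 (exact permutation test, two-sided, p = 0.0873, adjusted over 13 comparisons 0.763). On the log2(CPM + 1) scale the exact permutation p was 0.0476, without replicate 5 of vehicle D, itself at 0, it was 0.0286, and without any 1 library of GW in D it was 0.196. 1 of these 4 libraries is the sample whose labels disagree on its genotype.

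Over both treatments Rxra held 32 counts in Ppara-null and 23 in intact libraries (ratio 1.36, counting interval 0.771 to 2.43), 24 in floxed and 31 in other libraries (0.855, 0.480 to 1.51), and 24 under GW and 31 in vehicle (0.841, 0.473 to 1.48). Over 13 comparisons adjusted permutation p ran from 0.763 to 0.857. Of the other retinoid X receptors, Rxrb had 32 counts over all 38 libraries, at most 4 in any of them, and 16 libraries at 0. Rxrg had 0 counts, which allows up to 0.165 pooled CPM over all libraries. Rxra and Rxrb were therefore the RXR genes with tags in these organoids, and neither was deep enough to enter the fit.

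**Figure D3:**
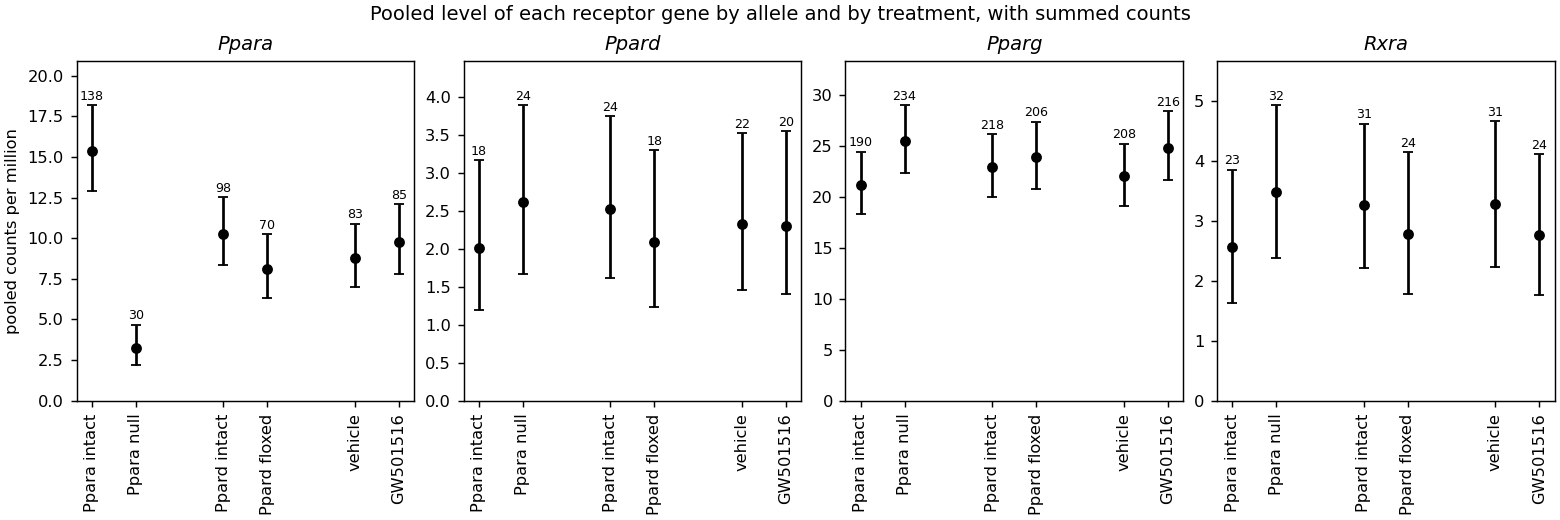
Pooled CPM (vertical axes, linear, from 0) of the 4 receptor genes by Ppara genotype, Ppard genotype and treatment (horizontal axes), with exact 95% Poisson intervals that cover counting error only and the summed counts above them. Only for Ppara by its own genotype (138 against 30 counts) do the paired intervals separate.

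Other receptors that pair with RXR, and the proteins that PPARs recruit, were followed from lists written with earlier results of these data known. Of 16 partner receptors 5 were measured deeply enough to be tested, namely Ppara, Pparg, Nr1h4 (the bile acid receptor FXR), Nr1i3 (the xenobiotic receptor CAR) and Vdr (the vitamin D receptor). In 16 comparisons the calls were the 2 of Ppara given above. Vdr stood at -0.39 ± 0.16 in Ppara-null against intact groups (edgeR adjusted p = 0.281), with mean levels of 30.5 and 38.7 CPM, and Nr1i3 at 0.33 ± 0.17 (adjusted p = 0.505). The median over the 5 was 0.06 there, against -0.003 over all genes tested.

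Of 22 coregulators 7 were tested, among them Ppargc1a, the coactivator PGC-1α that drives mitochondrial biogenesis, and Ncor1, a corepressor bound by receptors without ligand. In 16 comparisons, or 112 tests, 0 passed with edgeR, DESeq2 or limma-trend. With edgeR 4 of the 112 were at an unadjusted p under 0.05, beside 3.13% to 10.8% of all genes tested, depending on the comparison. The 2 with the smallest p in WT were Nrip1 (0.82 ± 0.38, edgeR adjusted p = 0.776) and Crebbp (0.79 ± 0.39, adjusted p = 0.776), both under GW. Over all genotypes GW against vehicle was -0.31 ± 0.20 for Ppargc1a and 0.16 ± 0.12 for Ncor1, and neither passed.

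A list of 46 PPAR target genes, also written with earlier results of these data known, was followed, and 35 of them were tested. Its counts beside the shares of all genes are therefore a description. Over all genotypes 18 of the 35 rose and 0 fell with GW, in a comparison where 0.55% of all genes tested passed as higher, and the list's median log2 fold change was 0.54 against 0.002 over all genes. Eci2, an enoyl-CoA isomerase of fatty acid oxidation, rose by 0.85 ± 0.09, Angptl4, a secreted inhibitor of lipoprotein lipase, by 1.06 ± 0.12 and Hadhb, the thiolase subunit of the mitochondrial trifunctional protein, by 0.50 ± 0.07 on the log2 scale.

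By genotype, 14 of the 35 rose with GW in WT (0.402% of all genes passed as higher, list median 0.83) and 12 in A (0.296%, median 0.73). In D and in DA 0 of 35 passed with edgeR, as with DESeq2 and limma-trend, in comparisons where 0% of genes passed as higher, with medians of 0.41 and 0.09. At an unadjusted p under 0.05 there were 15 of the 35 in D and 2 in DA, beside 3.13% and 3.19% of all genes tested. With no filter on low counts 1 of 43 passed in D (edgeR adjusted p = 0.0194) and 0 in DA. The shares of all genes passing with no filter are not given here, so these counts cannot be weighed against them. Angptl4 went from 24.0 ± 7.83 CPM in vehicle to 95.2 ± 19.2 under GW in WT (SD, n = 5 each) and from 30.6 ± 8.09 to 78.1 ± 19.1 in A (n = 5 each). It went from 37.4 ± 10.8 (n = 5) to 71.3 ± 27.0 (n = 4) in D and from 50.8 ± 4.46 (n = 4) to 50.8 ± 14.4 (n = 5) in DA. The difference in response itself passed for 2 of the 35 between DA and WT (0.0846% of genes passed as lower), Angptl4 at -1.94 ± 0.35 and Acot1, an acyl-CoA thioesterase with close paralogs that may share its tags, at -3.37 ± 0.49. There 3 passed with DESeq2 and 3 with limma-trend. At an unadjusted p under 0.05 in edgeR 20 of the 35 were lower, beside 4.21% of all genes in either direction. For D against WT 0 of 35 differences in response passed with edgeR and with DESeq2 and 1 with limma-trend, with 7 at an unadjusted p under 0.05 in edgeR, beside 3.49% of all genes. With no filter 1 of 43 passed (edgeR adjusted p = 0.0233), again with no share over all genes given. For A against WT 0 passed with any of the 3 tools, with 1 at an unadjusted p under 0.05 in edgeR, beside 3.45% of all genes. Under GW alone, D against WT, 1 of the 35 was lower with edgeR (adjusted p = 9.59e-05), with DESeq2 and with limma-trend, in a comparison where 0.0211% of genes passed as lower.

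Between Ppara-null and intact organoids 7 of the 35 were lower and 0 higher, beside 1.06% and 1.35% of all genes tested, with a list median of -0.21 against -0.003. Within library numbers 1 to 36 the count was 3 and within 37 to 60 it was 1, with the blocking term 11, and it was 4 without replicate 1 of GW in A, replicate 2 of GW in D or replicate 3 of vehicle in D. Fabp1 fell by 1.24 ± 0.15 on the log2 scale, from a median of 24701 CPM in intact libraries (13271 to 59402) to 10423 in null libraries (5563 to 27843), and 13 of the 19 null libraries lay below every intact one. Eci2 fell by 0.51 ± 0.09, Crot, the peroxisomal carnitine octanoyltransferase, by 0.51 ± 0.11 and Acadvl, the very-long-chain acyl-CoA dehydrogenase, by 0.42 ± 0.11. For these 3 the ranges overlapped, with 1, 1 and 4 of the 19 null libraries below every intact one. That comparison averages over both treatments. Against WT in vehicle the list median was -0.06 in A and -0.03 in DA, with 0 of 35 passing as lower in either and 1 as higher in DA. For DA in vehicle, 3 of the 35 were higher and 1 lower at an unadjusted p under 0.05 (edgeR). Beside them stood 6.26% of all genes in either direction, and the share passing as higher after adjustment is not given here. Under GW the medians were -0.26 in A, where 0 passed, and -0.75 in DA, where 12 passed as lower. The median over all genes in that DA comparison was -0.003, and the share of all genes passing as lower is not given here. In DA under GW 27 of the 35 were lower at an unadjusted p under 0.05 (edgeR), beside 9.07% of all genes in either direction. For the Ppard genotype over both treatments 0 of 35 passed with edgeR and with DESeq2 and 1 with limma-trend, with 8 of 35 at an unadjusted p under 0.05 beside 4.14% of all genes, a list median of -0.14, and 0.127% of all genes passing in either direction. The 4 enterocyte markers summed to a mean of 3675 CPM in vehicle and 4827 under GW for WT organoids. The same means were 3550 and 4618 for D organoids, 3208 and 4405 for A organoids, 3519 and 3112 for DA organoids. Most of that sum was Fabp2, which is also in the target list, at means of 2652 and 3895 CPM in WT. Without it, Alpi, Apoa1 and Sis summed to means of 1023 CPM in vehicle and 932 under GW for WT organoids, 935 and 995 for D organoids, 1077 and 930 for A organoids, 967 and 883 for DA organoids. The part of cell composition in the target genes' levels was not tested.

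**Figure D4:**
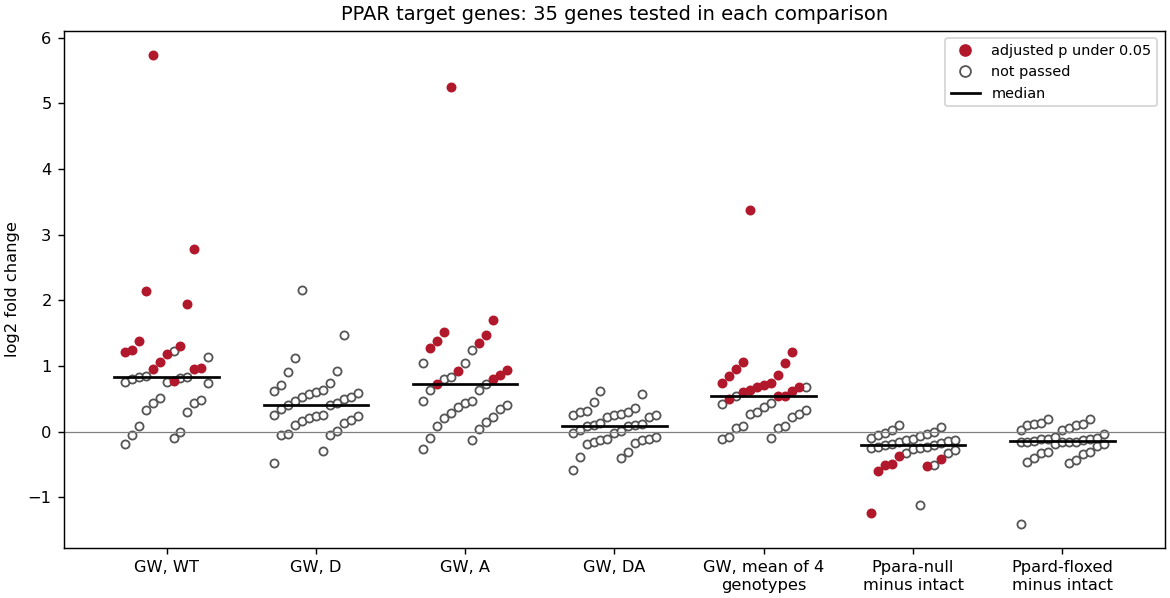
Log2 fold changes (vertical axis) of the 35 PPAR target genes tested, in 7 comparisons (horizontal axis). Each point is a gene, red where the adjusted p is under 0.05, and black lines are medians: the list sits highest in WT and A (medians 0.83 and 0.73), lower in D (0.41) and near 0 in DA (0.09), and slightly below 0 for both genotypes' main comparisons.

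By a rule that took the 3 genes tested with the highest correlation of log2 CPM over the 38 libraries, the patterns most like that of Ppara were Lgals2, a galectin (Pearson r 0.68), the predicted gene Gm42047 (0.66) and Jaml, a junction adhesion molecule-like protein (0.65). Over the 8 group means the same r were 0.84, 0.95 and 0.90. Since they were chosen for likeness to a gene that is low in the Ppara-null groups, their lower levels there follow from the choice and are given as a description. These were, null against intact, Lgals2 at 4534 ± 1202 CPM against 6805 ± 1196 (SD, n = 19 each), Gm42047 at 2.65 ± 4.32 against 15.0 ± 8.53 and Jaml at 99.0 ± 60.3 against 169 ± 55.8. For Pparg the nearest were Gm2026 (0.59), Hepacam2 (0.59) and Rad9a (0.56). These correlations describe libraries that share genotype and depth, and no test was attached to them.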

How the data were processed

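Polyadenylated RNA of 38 organoid libraries was measured by 3′ digital gene expression. Deposited were a table of raw counts by Ensembl identifier and a table of log2 values, the latter by its values log2(CPM + 1). The authors used build mm10 with Salmon 1.1.0, edgeR 3.26.8 and R 3.6.2, per the submitters' processing notes. The handling of molecular identifiers and filters are not given in the sources used here. Of 57 columns, 38 were joined to groups by treatment and genotype in their names. The 19 others were not used. Columns carry no replicate number, so replicate numbers follow the column order, and 5 used columns carry a suffix 2 that no label explains. GENCODE M21 gave a symbol to 54109 identifiers and none to 243.

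The receptor genes, the lists and the tests were chosen with earlier results of these data known. Libraries of 353347 to 577557 counts were scaled with TMM, filtered with filterByExpr by group (minimum count 10), which left 4729 genes, and fitted over 8 groups with glmQLFit and glmQLFTest in edgeR 4.0.16 (R 4.3.3), tested on simulated data. Standard errors are the fold change over the root of F. CPM are counts over the library total times 1000000. Ppard and Rxra, under the filter, were compared by two-sided permutation tests of mean CPM, exact between 2 groups and with 100000 resamples otherwise, adjusted over 13 comparisons per gene. Named genes are the 4 receptor genes, up to 4 of each list with the smallest p in a comparison, the promoter matches, chosen after their values were seen, and the 3 genes most like each fitted receptor gene in log2 CPM (prior count 2). Some list members are counted but not reported by name. Promoters came from RefSeq. None of the 72 pairs within a group were copies (their chi-square ran from 1.51 to 7.10 per degree of freedom). Alternatives were median-ratio size factors, no filter, DESeq2 1.42.0, limma-trend (limma 3.58.1), only the groups compared, a block for runs of library numbers, each run alone, no suffix 2 and each library left out.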

Additional observations from a re-analysis of the deposited data

Results flagged for a closer look

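Of 31 sets of a receptor gene in a group, 1 held a library far from the rest: Ppard in A under GW, where replicate 4 had 4 counts (8.04 CPM) and the other 4 libraries had 0. Chance marks about 1 in 20 such sets. Without that library the group has no Ppard count.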

How the results depend on the processing

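Ppara in null against intact groups kept its direction and passed under every alternative run except within library numbers 37 to 60, where it was -1.72 on the log2 scale; leaving out libraries gave -2.37 to -2.13. For DA against WT in vehicle Ppara did not pass within numbers 1 to 36 (-2.62), within 37 to 60 (-3.56) or without the suffix 2 columns (-3.06), and leaving out libraries gave -3.59 to -2.64. A against WT in vehicle passed with no filter (-2.25) and with the block for library numbers (-2.25). With no filter A against WT under GW (-2.17) and DA against WT under GW (-2.04) passed, the latter also with the block (-2.06). Leaving out libraries gave -2.46 to -1.94 and -2.29 to -1.87 for these 2.

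Within a run of library numbers the sign turned in 6 of 16 comparisons for Ppara and in 8 of 16 for Pparg, none of which passed as reported. The Ppara comparisons with GW in D turned within 37 to 60, at -2.44 against vehicle, -2.87 against WT under GW and -2.26 for the response against WT, with 1 library of GW in D, and GW in A was 0.19 there. The GW response of Ppara in A minus WT was -0.33 within 1 to 36. For Pparg, GW in DA was -0.10 and its response against WT -0.18 within 1 to 36, and within 37 to 60 DA against WT in vehicle was -0.59, A against WT -0.07 in vehicle and -0.15 under GW, and the GW response in A minus WT -0.08. In the comparisons over all genotypes or treatments, within 37 to 60 Ppara by GW was -0.35, Pparg by Ppara genotype -0.10 and by Ppard genotype -0.0328, which within 1 to 36 was -0.0072 and with libraries left out -0.0051 to 0.11. Ppard by Ppard genotype was 0.0323 on the log2(CPM + 1) scale, and Ppard by GW was 0.968 CPM within 37 to 60 and -0.395 to 0.187 CPM with libraries left out. Rxra by Ppard genotype was 0.156 CPM within 37 to 60 and 0.238 CPM without the suffix 2 columns, an alternative chosen after seeing the data.

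Genes passing by Ppara genotype numbered 208 with no filter and 20 within 37 to 60 (114 as reported), by Ppard genotype 38 with no filter, 1 within 1 to 36 and 26 within 37 to 60 (6 as reported), and by GW 62 with no filter and 14 within 1 to 36 (30 as reported). PPAR target genes passing by Ppara genotype numbered 11 with the block, 3 within 1 to 36, 1 within 37 to 60 and 4 to 10 with libraries left out (7 as reported). Those passing by GW numbered 11 within 1 to 36 and 7 within 37 to 60 (18 as reported). The cause was not tested; the runs alone hold fewer libraries.

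No paired analysis was possible because the columns carry no replicate number of the labels. Depth limits Ppard and Rxra most: at 0 to 4 counts per library, differences inside the counting intervals were not detectable.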
